A study of Homo sapiens with 6 samples.

Results

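Fatty acid synthesis, desaturation and activation genes were followed in cells given short hairpin RNA (shRNA) against GOLPH3, a Golgi protein that helps to hold glycosyltransferases in place. The set has 9 genes, chosen by mouse Ensembl identifier (ID) out of 34866 IDs in the count table, with earlier results of these data known. They encode enzymes of fatty acid synthesis, elongation, desaturation and activation, or their regulator. In the order of the pathway they are Acly (ENSMUSG00000020917.17), Acaca (ENSMUSG00000020532.18), Fasn (ENSMUSG00000025153.9), Elovl6 (ENSMUSG00000041220.10), Scd1 (ENSMUSG00000037071.2), Scd2 (ENSMUSG00000025203.5), Acsl3 (ENSMUSG00000032883.15), Acsl4 (ENSMUSG00000031278.12) and Srebf1 (ENSMUSG00000020538.15). The symbols came with the list of members. The count table carries IDs only, and none of its IDs (0) was found in the reference name tables, which cover human genes.

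The samples are labelled as MKN45, a line from a human gastric adenocarcinoma, which the study's design describes as negative for the gland mucin MUC6. Adenovirus delivered GOLPH3 shRNA to 3 samples and control shRNA to 3 samples, per the labels, so both groups were transduced. The titles number the samples sh1 to sh3 and shcont1 to shcont3. These numbers are called replicates here, and whether they stand for different hairpins is not given. The labels do not give the time after transduction, the hairpin sequences or their number, or whether replicate numbers stand for separate cultures, so the p-values reflect the spread of these samples alone, and that spread could be technical. The library kit was stranded and for messenger RNA. The GOLPH3 shRNA libraries held 4977645 to 5676169 estimated counts, and the control shRNA libraries 6287037 to 7355140.

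The labels give human cells, while the table holds mouse gene models and the submitters' processing notes name the mouse build mm10. From the table, human reads counted on mouse gene models cannot be told apart from reads of mouse cells. If the reads were human, each value counts the reads that matched the mouse model, which need not follow the level of the human transcript, so a level is given only to compare the same ID between libraries. The level of GOLPH3 itself, which would check the knockdown, and the markers of the labelled cell type were not analysed here, since no symbol was paired with their IDs.

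Cells make fatty acids from citrate that leaves the mitochondria. ATP citrate lyase (ACLY) splits it into acetyl-CoA, acetyl-CoA carboxylase (ACACA) turns acetyl-CoA into malonyl-CoA, and fatty acid synthase (FASN) builds palmitate from both. ELOVL6 lengthens palmitate, stearoyl-CoA desaturases add a double bond, and the acyl-CoA synthetases ACSL3 and ACSL4 join free fatty acids to coenzyme A for use in lipids. Transcription of many of these enzymes is driven by SREBP-1, the product of SREBF1, which is carried as a membrane precursor from the endoplasmic reticulum to the Golgi and released there by proteases.

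With GOLPH3 shRNA, the elongase Elovl6 and the regulator Srebf1 fell by folds of 2.01 and 1.997, and Acly and Fasn fell by smaller folds of 1.35 and 1.27. The other tested members, Acaca, Acsl3 and Acsl4, did not pass the test, and Scd1 and Scd2 had too few reads to be tested. Of the 9 members, 7 were tested and 2 were not. Of the tested members, 4 were called lower and 0 higher (edgeR's quasi-likelihood test with a Benjamini-Hochberg adjusted p under 0.05 over all tested IDs). Called and at least 1.5-fold lower were 2 of the tested members and 9.13% of all tested IDs. Over the whole table, 17.8% of the 11400 tested IDs were called lower and 16.1% higher. Because the set was chosen with earlier results of these data known, these shares stand beside the members without a test. Abundant IDs were called more often: among IDs with a mean of at least 20 CPM (depth-scaled counts, with library sizes corrected by trimmed means, TMM), a level every tested member reached, 24% were called lower. The tested members had a median log2 fold change of -0.35, beside 0.0019 over all tested IDs, whose quartiles were -0.32 and 0.30. In bulk samples, less RNA per cell cannot be told apart from fewer cells that express the gene.

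**Figure D1:**
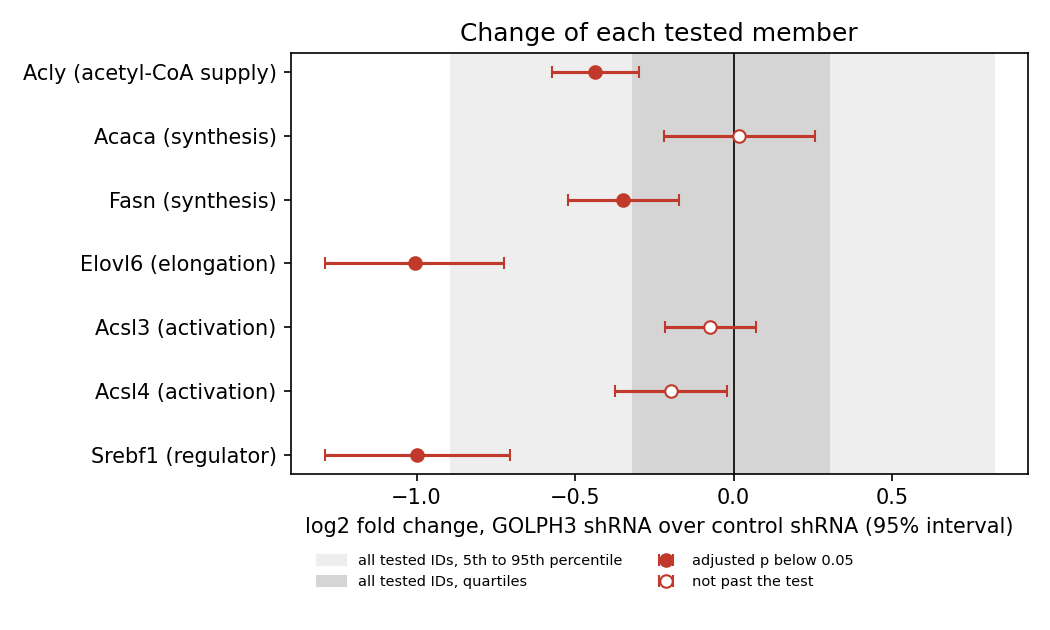
Log2 fold change of GOLPH3 shRNA over control shRNA for the 7 tested members, from edgeR with 95% intervals, ordered by role, over grey bands for the quartiles and the 5th to 95th percentiles of all tested IDs. Filled points passed the test. Elovl6 at -1.01 and Srebf1 at -0.998 lie left of the 5th percentile, and Acaca at 0.018 lies near 0.

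The human promoters of the members that fell are shown. These members were picked because they were called lower, so their shared direction follows from the choice. The sequences are from RefSeq (GRCh38.p14), matched by human symbol, and their coordinates are not those of the build used for the counts. Of the 8 human genes that correspond to the members (SCD stands for both Scd1 and Scd2), 7 had an entry; FASN had none. Each line gives the 250 bases before an annotated start, 5′ to 3′ on the minus strand, with the transcribed bases left out. Capitals mark the CCAAT box (CCAAT or its reverse, ATTGG) and the GC box (GGGCGG or its reverse, CCGCCC). ACLY lies at chr17:41919023-41919272 (the outermost of 2 annotated starts), ELOVL6 at chr4:110198616-110198865 and SREBF1 at chr17:17836987-17837236.
ACLY: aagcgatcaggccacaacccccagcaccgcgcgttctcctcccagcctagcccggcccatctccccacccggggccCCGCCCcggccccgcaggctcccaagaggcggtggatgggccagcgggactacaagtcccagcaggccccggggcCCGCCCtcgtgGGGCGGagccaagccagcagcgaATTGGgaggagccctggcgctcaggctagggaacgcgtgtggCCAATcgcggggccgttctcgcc
ELOVL6: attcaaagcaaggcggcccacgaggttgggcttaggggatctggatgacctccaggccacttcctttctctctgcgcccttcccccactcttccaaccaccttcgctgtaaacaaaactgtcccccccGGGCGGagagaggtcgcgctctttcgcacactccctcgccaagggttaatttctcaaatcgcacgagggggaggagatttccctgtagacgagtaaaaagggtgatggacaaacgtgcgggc
SREBF1: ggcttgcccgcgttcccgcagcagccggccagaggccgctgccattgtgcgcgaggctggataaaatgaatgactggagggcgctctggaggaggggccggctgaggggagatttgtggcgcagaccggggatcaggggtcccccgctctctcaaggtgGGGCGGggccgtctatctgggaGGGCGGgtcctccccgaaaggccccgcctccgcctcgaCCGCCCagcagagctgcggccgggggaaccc

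Both strands of the upstream bases of all 35116 promoter entries were searched for these motifs, for CACGTG, a form of the E-box, and for TCACNCCAC, a form of the sterol regulatory element that SREBPs bind. The ACLY window holds 2 CCAAT boxes and 3 GC boxes, with no overlap between the different motifs. The ELOVL6 window holds 1 GC box and the SREBF1 window 3, and neither holds a CCAAT box. The 7 genes have 10 windows, since ACLY has 2 starts, whose windows overlap, and ACACA has 3. SREBF1 has 1 window, although its transcripts start at more than 1 promoter, and FASN, without an entry, was not searched. A CCAAT box is in 6 of the 10 windows and in 32% of all windows, and a GC box is in 9 of the 10 and in 42.6% of all. These differences were not tested. By gene, a CCAAT box is in at least 1 window of 4 of the 7 genes (ACLY, ACACA, SCD and ACSL3). A GC box is in at least 1 window of all 7, and genes with several windows have more chances of a match. TCACNCCAC is in 0 of the 10 windows and in 0.883% of all windows, and CACGTG is in 0 of the 10 and in 6.34% of all. At such shares, 0 of 10 windows does not set these genes apart from the rest. These are matches of letters in short windows and say nothing of which factor binds there.

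Acly, which supplies cytosolic acetyl-CoA, fell in every GOLPH3 shRNA library. It had 345, 329 and 345 CPM in GOLPH3 shRNA replicates 1, 2 and 3, against 450, 451 and 478 CPM in control shRNA replicates 1, 2 and 3. The GOLPH3 shRNA values lay close together and wholly below the control values. The means were 339.8 ± 9.62 CPM with GOLPH3 shRNA and 459.8 ± 16.04 CPM in the controls (SD, n = 3 each). The log2 fold change was -0.44 (SE 0.065, edgeR adjusted p = 8.94e-05), which is 26.1% lower. Acly was the most counted member, with 1704 to 1911 counts per GOLPH3 shRNA library and 2889 to 3310 per control library, and its estimates were whole in all 6 libraries.

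Acaca, the enzyme that commits acetyl-CoA to fatty acid synthesis, did not pass the test. It had 89.0, 76.3 and 87.5 CPM in GOLPH3 shRNA replicates 1 to 3, against 88.6, 68.5 and 92.8 CPM in control shRNA replicates 1 to 3. The groups overlapped, and in each group replicate 2 was the lowest. Its log2 fold change was 0.018 (SE 0.11, edgeR adjusted p = 0.92), with a 95% interval from -0.22 to 0.26. The log2 fold changes of the 4 members that fell all lie below that interval. However, the 95% interval of Fasn, from -0.52 to -0.17, overlaps that of Acaca, while that of Acly, from -0.57 to -0.30, does not. For Acaca, all 6 libraries had an estimate with a fractional part, which can arise where a quantifier divides reads between gene models.

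Fasn, the synthase that builds palmitate, fell by a fold of 1.27. It had 87.2, 84.3 and 91.6 CPM in GOLPH3 shRNA replicates 1 to 3, against 106, 117 and 113 CPM in control shRNA replicates 1 to 3. The groups did not overlap. The means were 87.7 ± 3.67 CPM with GOLPH3 shRNA and 112 ± 5.42 CPM in the controls (SD, n = 3 each), and the log2 fold change was -0.35 (SE 0.082, edgeR adjusted p = 0.0038). This is a modest shift among these data: 23.3% of all tested IDs had a lower log2 fold change, and for IDs called lower the median was -0.59.

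Elovl6, the elongase that acts on palmitate, had the lowest log2 fold change of the tested members. It had 23.5, 23.6 and 17.7 CPM in GOLPH3 shRNA replicates 1 to 3, against 42.2, 42.3 and 45.7 CPM in control shRNA replicates 1 to 3. GOLPH3 shRNA replicate 3 was the lowest library, and the highest GOLPH3 shRNA value stayed well below the lowest control value. The means were 21.6 ± 3.39 CPM with GOLPH3 shRNA and 43.4 ± 2.01 CPM in the controls (SD, n = 3 each). The log2 fold change was -1.01 (SE 0.13, edgeR adjusted p = 3.00e-05), with a 95% interval from -1.29 to -0.72. Of all tested IDs, 3.38% had a lower value, and 2.91% were called and at least 2-fold lower. Its estimates had a fractional part in all 6 libraries and came to 98.0 to 132 counts per GOLPH3 shRNA library and 271 to 310 per control library, so its values rest on fewer reads than those of the enzymes before it.

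Srebf1, which encodes SREBP-1, fell by nearly the same fold as Elovl6. It had 31.0, 32.9 and 26.7 CPM in GOLPH3 shRNA replicates 1 to 3, against 73.8, 52.9 and 54.7 CPM in control shRNA replicates 1 to 3. Control replicate 1 stood above the other controls, and no GOLPH3 shRNA value reached any control value. The means were 30.2 ± 3.17 CPM with GOLPH3 shRNA and 60.5 ± 11.6 CPM in the controls (SD, n = 3 each). The log2 fold change was -0.998 (SE 0.14, edgeR adjusted p = 4.31e-05), with a 95% interval from -1.29 to -0.71, and 3.46% of all tested IDs had a lower value. Without control replicate 1 it was -0.84 (edgeR adjusted p = 0.00023). The table gives 1 value per gene, so the transcripts for SREBP-1a and SREBP-1c, which start at different promoters, were not separated. The lower RNA says nothing of how much SREBP-1 was processed in the Golgi.

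**Figure D2:**
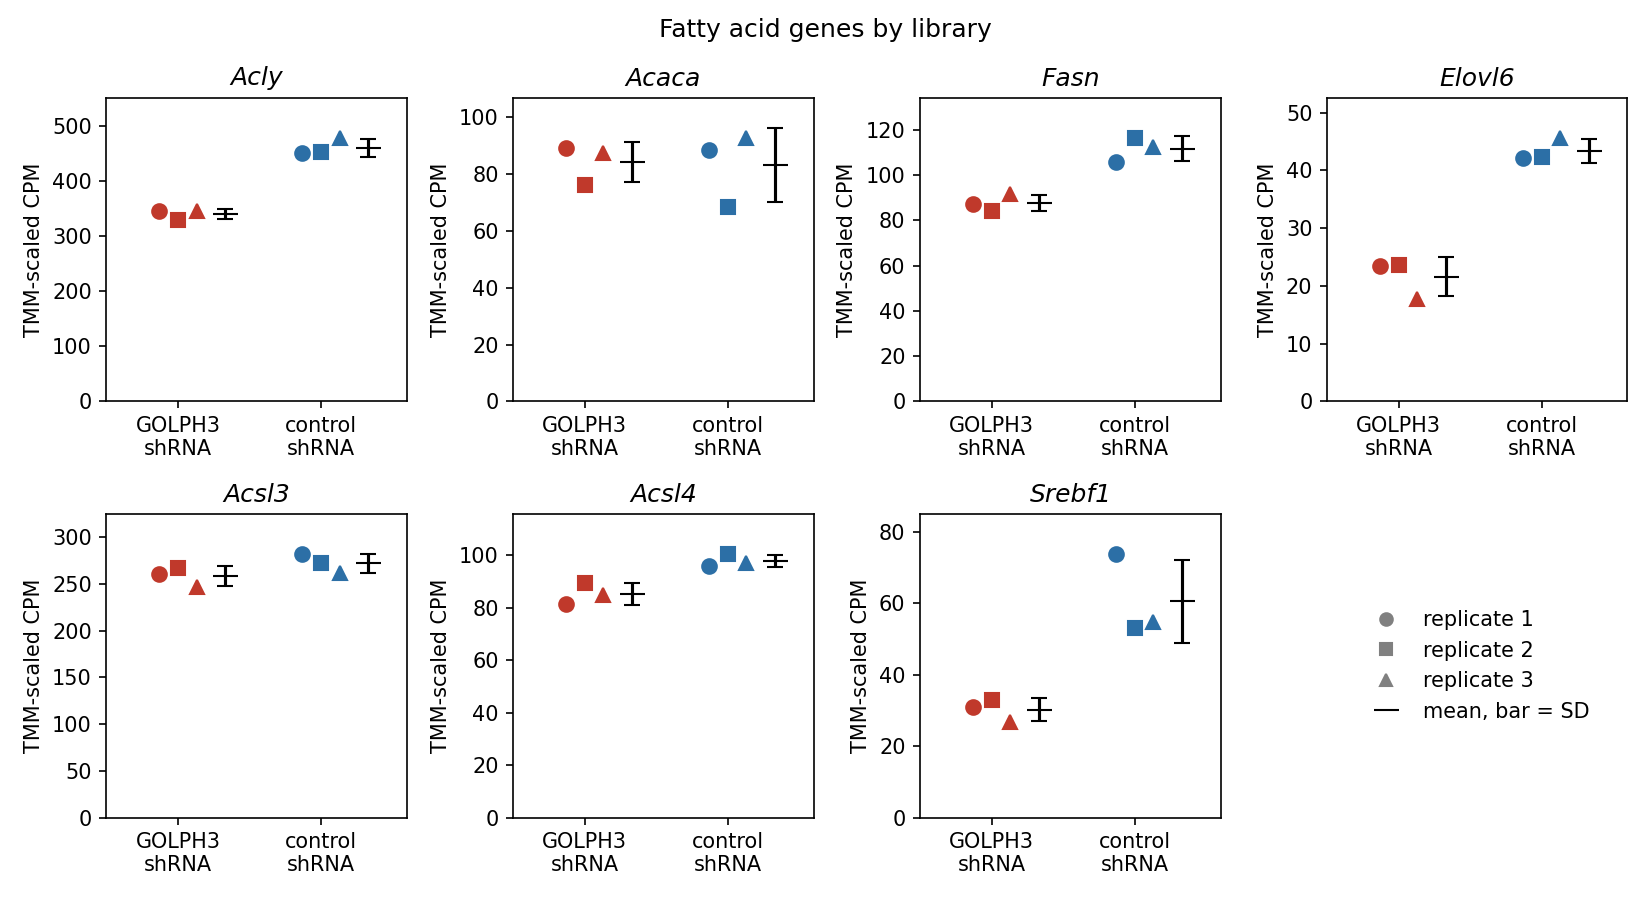
TMM-scaled CPM of the 7 tested members in each library, with GOLPH3 shRNA in red on the left and control shRNA in blue on the right; symbols stand for replicate numbers and bars for the mean and SD of 3 libraries. The groups are separate for Acly, Fasn, Elovl6, Acsl4 and Srebf1, and overlap for Acaca and Acsl3.

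The acyl-CoA synthetases did not pass the test. Acsl3, found on the endoplasmic reticulum and lipid droplets, had 261, 267 and 247 CPM in GOLPH3 shRNA replicates 1 to 3, against 282, 272 and 262 CPM in control shRNA replicates 1 to 3. The groups overlapped, and the log2 fold change was -0.074 (SE 0.068, edgeR adjusted p = 0.43), with a 95% interval from -0.22 to 0.070. Acsl4, which prefers arachidonic acid and is known for its part in ferroptosis, had 81.3, 89.5 and 84.9 CPM in GOLPH3 shRNA replicates 1 to 3, against 95.9, 100 and 96.9 CPM in control shRNA replicates 1 to 3. Each GOLPH3 shRNA value was below each control value. The log2 fold change was -0.20 (SE 0.083), with an unadjusted p of 0.030 and an edgeR adjusted p of 0.077, so Acsl4 was not called. Separate values of this kind, with GOLPH3 shRNA wholly below the controls, were seen in 5 of the 7 tested members and in 24.2% of all tested IDs, or 29.7% of those with a mean of at least 20 CPM.

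The desaturases were nearly without counts. Scd1 had 0 counts in all 6 libraries. A count of 0 allows up to 3 counts, which is 0.608 CPM in the smallest library and 0.409 CPM in the largest, a limit that covers counting error only. Scd2 had 0 counts in the 3 GOLPH3 shRNA libraries, and 0, 4.75 and 1.58 estimated counts in control shRNA replicates 1, 2 and 3. Both were removed by the filter on low counts, and no fold is given, since both groups are at or near the limit. Mice carry several Scd genes side by side where humans have 1 closely matching gene, SCD, and reads that match more than 1 of them can be divided or dropped, depending on the counting step, which no source used here describes. The zeros therefore show that no reads were assigned to these mouse models, and do not show that the cells lacked a stearoyl-CoA desaturase.

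**Figure D3:**
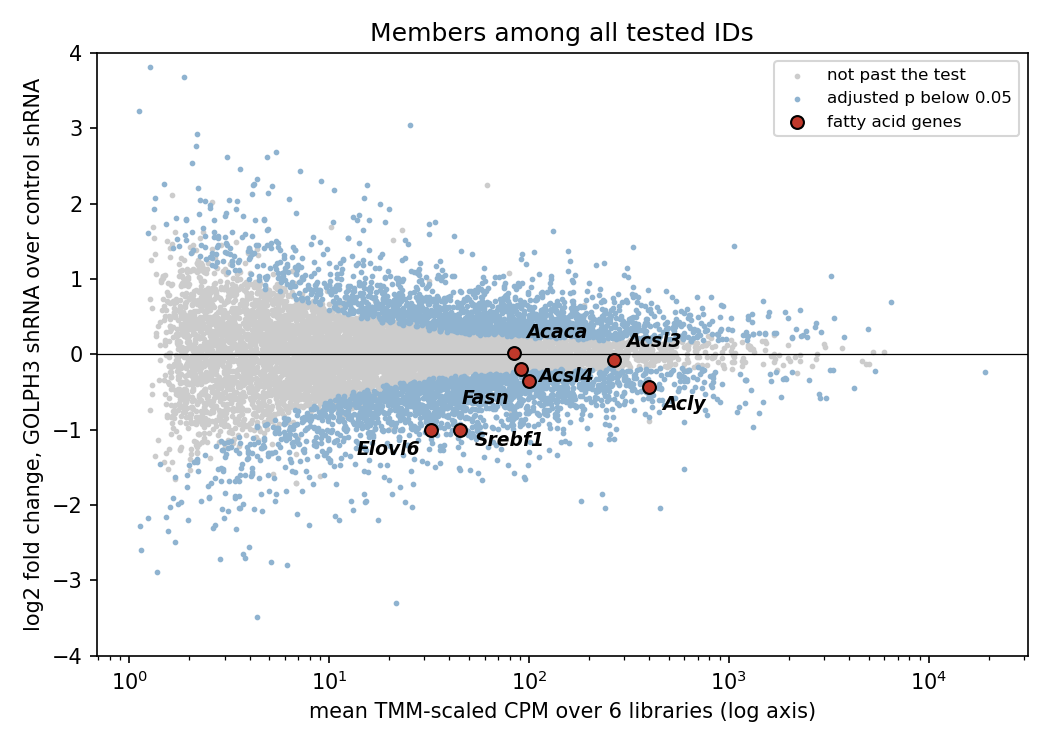
Log2 fold change of GOLPH3 shRNA over control shRNA against mean TMM-scaled CPM (log axis) for all 11400 tested IDs, with the 7 tested members in red; 3 IDs beyond 4 in either direction are outside the plot. Elovl6 at -1.01 and Srebf1 at -0.998 are the lowest of the members, and Acaca and Acsl3 lie near 0 among IDs that did not pass the test.

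Counts of members were also compared within libraries. Ratios of counts between members of the same library do not depend on how libraries are scaled, and 4 were tested by exact permutation (two-sided), where 3 libraries against 3 give no p below 0.1. A ratio between genes also carries their lengths and mappability, so only its difference between groups is read. All but Acsl3 to Acsl4 were chosen after the data were examined. Their p-values and separation therefore restate the member changes above and are no separate support for them. The log2 ratio of Elovl6 to Fasn, an elongase set against the synthase that makes its substrate, was -1.89, -1.83 and -2.37 in GOLPH3 shRNA replicates 1 to 3, against -1.33, -1.46 and -1.30 in control shRNA replicates 1 to 3. The groups were separate, and the difference was -0.67 (exact permutation p = 0.1, adjusted p = 0.13 over the 4 ratios). The ratio was lower than in any control in 3 of 3 GOLPH3 shRNA libraries and lowest in replicate 3, without which the difference was -0.50.

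Acaca, which was not called, was also set against the enzymes before and after it, in ratios chosen after the data were examined. The log2 ratio of Acaca to Acly was -1.96, -2.11 and -1.98 in GOLPH3 shRNA replicates 1 to 3, against -2.34, -2.72 and -2.36 in control shRNA replicates 1 to 3, a difference of 0.46 (exact permutation p = 0.1, adjusted p = 0.13). The log2 ratio of Fasn to Acaca was -0.030, 0.14 and 0.067 in GOLPH3 shRNA replicates 1 to 3, against 0.26, 0.77 and 0.28 in control shRNA replicates 1 to 3. Its difference was -0.37 (exact permutation p = 0.1, adjusted p = 0.13), and without control replicate 2, where Acaca was low, it was -0.21. Both ratios were separate between the groups. For the acyl-CoA synthetases, the log2 ratio of Acsl3 to Acsl4 was 1.68, 1.58 and 1.54 in GOLPH3 shRNA replicates 1 to 3, against 1.56, 1.44 and 1.44 in control shRNA replicates 1 to 3. These values overlapped, with a difference of 0.12 (exact permutation p = 0.2, adjusted p = 0.2).

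**Figure D4:**
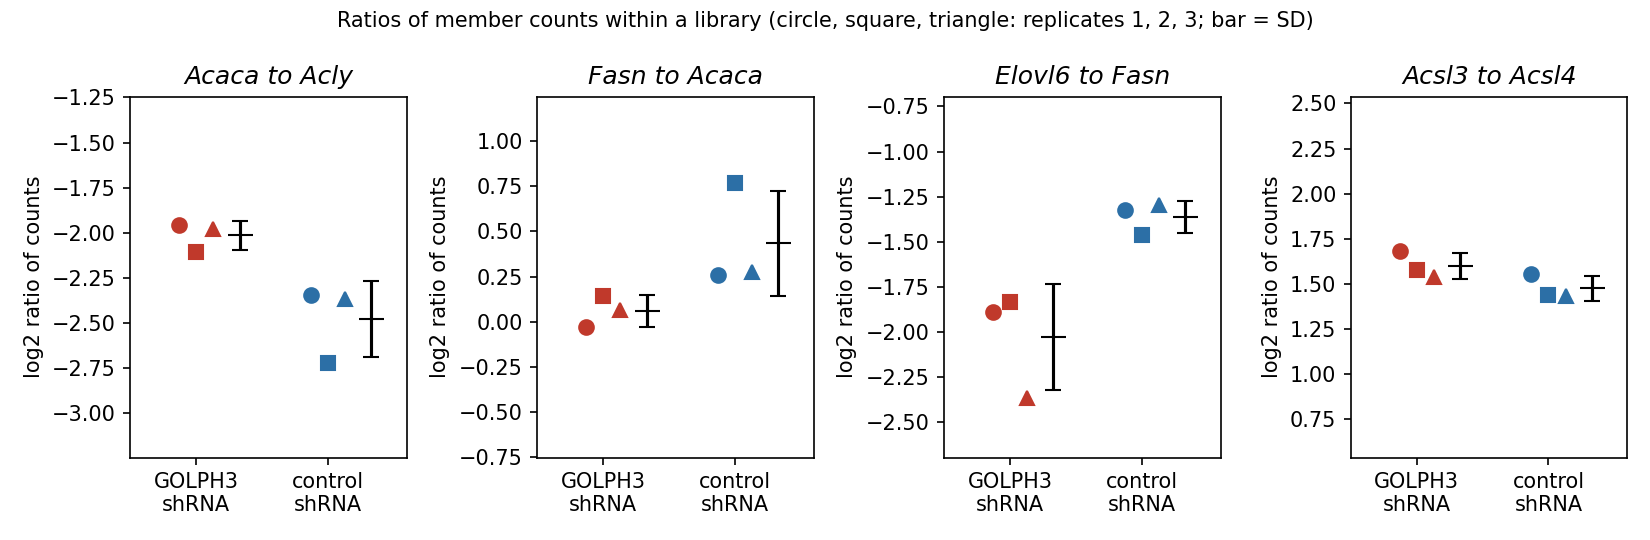
Log2 ratio of the counts of neighbouring members within each library, with GOLPH3 shRNA in red on the left and control shRNA in blue on the right; symbols stand for replicate numbers, bars for the mean and SD of 3 libraries, and each panel spans 2 log2 units. The groups are separate for the first 3 ratios and overlap for Acsl3 to Acsl4.

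For the members that fell, every GOLPH3 shRNA library lay below the control mean, with some spread in size. These members were picked because they were called lower, which already asks for libraries that agree. Their agreement is therefore no separate support. Set against the mean log2 CPM of the controls, Srebf1 was lower by -0.94, -0.85 and -1.15 in GOLPH3 shRNA replicates 1, 2 and 3, beside an SD of 0.26 among the controls. Elovl6 was at -0.87, -0.86 and -1.27 on the same scale, beside an SD of 0.065 among the controls. For both genes replicate 3 was the lowest. Fasn was at -0.35, -0.40 and -0.28, and for it replicate 3 was the nearest to the controls. Acly was at -0.41, -0.48 and -0.41, so the library that was lowest for Srebf1 and Elovl6 was not the lowest for Fasn or Acly. Of the members not called, Acsl4 was at -0.26, -0.13 and -0.20, Acsl3 at -0.059, -0.024 and -0.14, and Acaca at 0.11, -0.11 and 0.083.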

How the data were processed

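The 6 libraries were deposited as 1 table of estimated counts by mouse gene ID. The submitters' processing notes name the build mm10, while no source used here gives the aligner, quantifier, annotation release or strand setting. Estimated counts were rounded to whole numbers, and IDs were kept by filterByExpr (11400 of 34866), which held 99.7% to 99.8% of each library's counts. Groups, taken from the sample titles, were compared by the quasi-likelihood test of edgeR 4.0.16 (R 4.3.3) on TMM-scaled libraries, with p-values adjusted by Benjamini-Hochberg over all tested IDs. SEs were derived from the F statistic, and 95% intervals used the fit's degrees of freedom. CPM use TMM-scaled library sizes. Ratios used a pseudocount of 0.5 counts, and the log2 CPM set against the control mean one of 0.5 CPM. The edgeR fit was checked on simulated counts with known changes. Alternatives were DESeq2 1.42.0, limma-voom (limma 3.58.1), other scalings, filters and rounding, a block for the replicate number, leaving out each library, and thinned libraries.

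All members were named by rule. The members and lists were chosen with earlier results of these data known, and the ratios other than Acsl3 to Acsl4, the thinning, the 20 CPM background and the promoter motifs were chosen after the data were examined. Lists of other lipid genes and of cell type markers, fixed by symbol, were not analysed here, since no symbols were paired with their IDs.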

Additional observations from a re-analysis of the deposited data

How the results depend on the processing

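The 4 calls (Acly, Fasn, Elovl6 and Srebf1 lower) held, and 0 members were called higher, under each of the 15 alternatives run. Their log2 fold changes ran from -0.46 to -0.41 for Acly, from -0.39 to -0.29 for Fasn, from -1.08 to -0.88 for Elovl6 and from -1.09 to -0.84 for Srebf1. Acsl3 and Acsl4 stayed negative and were not called under any of them. Acaca changed sign but was never called: it was -0.00048 with no filter, and it ran from -0.11 to 0.097 over the fits with 1 library left out, being negative without GOLPH3 shRNA replicate 1 or 3 or without control shRNA replicate 2. The median over members was -0.41 with no filter, where Scd2 also entered, and -0.29 with libraries thinned to the smallest total. With thinning, which was 1 random draw of counts, that median is the value of Fasn, the middle member. Fasn was at -0.29 (SE 0.083) in that draw, beside -0.35 (SE 0.082) in the main fit. How far Fasn varies between draws was not tested. Over the fits with 1 library left out the median ran from -0.39 to -0.32, which is again the range of Fasn. Over all IDs, the alternatives called 1425 to 1922 higher and 1644 to 2222 lower. No scaling moved the median of all tested IDs by 0.1. Each scaling brings the libraries to a common level, so this cannot show whether total RNA per cell changed.

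With the replicate number as a block, 1842 IDs were called higher and 2045 lower, and 4 members lower with a median of -0.35. Same-numbered samples deviated together only weakly, with correlations of 0.029, 0.087 and 0.041 for numbers 1, 2 and 3. Differently numbered samples ran from -0.082 to 0.036, mostly below 0. Deviations were taken from each group's own mean, so positive values for same-numbered samples push the others below 0. The contrast between them is therefore not separate evidence on pairing. All of these correlations were small, and the numbers were not taken as pairs in the main fit. With the block, the SE of Acaca was 0.088, beside 0.11 without it, and Acaca was still not called. All 4 ratios kept their direction under the 9 alternatives run for each. The planned ratio of Scd1 to Scd2 and the other lipid gene lists were not run, the first because Scd1 had no counts.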
